A study of Mus musculus with 23 samples.

Results

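Tbx21, Gata3, Foxp3, Bcl6, Prdm1, Irf4, Eomes and Runx3, 8 genes for transcription factors that set the fate of helper T cells, were examined in CUT&Tag peak lists from CD4+ naive T cells of the mouse. They were chosen by name, with earlier results of these data known. They are 8 of the 21883 protein-coding genes of RefSeq (GRCm38.p6, the coordinates of mm10) on chromosomes 1 to 19, X and Y. CUT&Tag cuts and tags the DNA next to an antibody's target. Spleen and pLN of WT mice, and of mice with the genotype DDX55 KO, supplied the cells. DDX55 is a DEAD-box RNA helicase. The 23 samples were 4 each for RNA polymerase II, H3K9me3 and DDX55 (2 WT and 2 DDX55 KO), 8 for R-loops (DNA-RNA hybrids with a displaced strand; 4 WT and 4 DDX55 KO, 4 of the 8 with 20 U of RNase H), 2 for an HA tag and 1 for IgG, the last 3 all WT. The knockout's construction, the age of the mice and whether replicates are separate mice were not stated in those labels.

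The values used were 4 merged lists of peak positions, 1 per target, with no height, score or value per sample. WT and DDX55 KO samples named the same lists, so no difference between genotypes and no spread between replicates could be measured, and the depth is unknown. A gene is called held when an RNA polymerase II peak shared at least 1 bp with its span, whichever genotype gave the signal. In bulk profiles a peak present in few cells and a weak peak present in all cannot be told apart. The assembled chromosomes carried 10898 RNA polymerase II, 16474 H3K9me3, 1473 R-loop and 215 DDX55 peaks. Of 7 markers of naive CD4 T cells 6 had an RNA polymerase II peak within 10 kb, with 4 peaks over Cd4 itself. The count was 1 of 5 for each of the CD8 and NK, B cell and myeloid markers. These marker lists were also chosen with earlier results of these data known.

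A naive helper cell becomes one of several effector types after it meets antigen, and each type has a factor that installs its program. T-bet (Tbx21) directs the Th1 program, with its T-box relative Eomesodermin (Eomes) and with Runx3. GATA3 directs the Th2 program, FOXP3 the regulatory program, and BCL6 the follicular helper program, which BLIMP-1 (Prdm1) represses. IRF4 is induced by the antigen receptor and acts in several of these fates. RNA polymerase II gathers at the starts of genes that are transcribed or paused, H3K9me3 marks heterochromatin, and R-loops form where nascent RNA pairs with its template.

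The 8 genes split by RNA polymerase II. Irf4, Prdm1, Bcl6 and Runx3 were held, which is 4 of 8, while 32.2% of all protein-coding genes (7038) were. Foxp3 had no peak over its span but 1 within 10 kb, so 5 of 8 had one within 10 kb, against 41.6% of all genes. Tbx21, Gata3 and Eomes had no peak of any list within 10 kb, 3 of 8 beside 50% of all genes (10933). Over the span alone 4 of 8 had no peak of any list, beside 62.6% of all genes. Longer genes are held more often, and among the 12293 genes with spans between those of Eomes (7947 bp) and Prdm1 (91385 bp), the shortest and the longest of the 8, the shares were 38.6% over the span, 48.9% within 10 kb and 45.5% without any peak. The counts for the 8 genes were thus near those of all genes, and the lists allow no test of them. With only the wider 50% of the peaks, Irf4 and Runx3 were held and the same 2 of 8 had an RNA polymerase II peak within 10 kb, beside 21.2% and 27.8% of all genes. No peak of any list then lay within 10 kb of 6 of the 8, beside 66.3% of all genes.

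**Figure D1:**
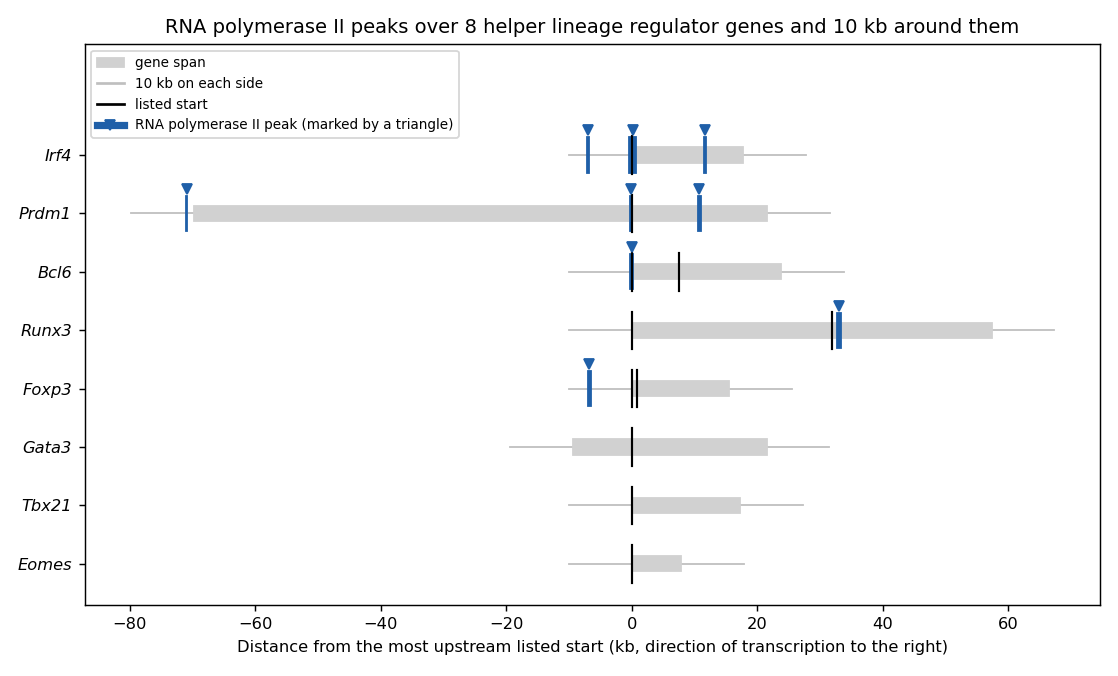
RNA polymerase II peaks (blue, each with a triangle) over the span (grey bar) of each gene and 10 kb on both sides (grey line), in kb from the most upstream listed start, with transcription running to the right and listed starts as black lines. Irf4 and Prdm1 carry 3 peaks each, Bcl6, Runx3 and Foxp3 carry 1 each, and Gata3, Tbx21 and Eomes carry none.

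The promoters of 6 starts are shown because they form 3 pairs, in which one start had an RNA polymerase II peak within 1 kb and the other had none. Each run is the 250 bases before a start listed in RefSeq's promoter table (GRCm38.p6), 5′ to 3′ on the gene's strand, with each CpG in capitals. The first pair, Prdm1 (with a peak) and Tbx21 (without), had nearly the same CpG content.
Prdm1, chr10:44458749-44458998, minus strand: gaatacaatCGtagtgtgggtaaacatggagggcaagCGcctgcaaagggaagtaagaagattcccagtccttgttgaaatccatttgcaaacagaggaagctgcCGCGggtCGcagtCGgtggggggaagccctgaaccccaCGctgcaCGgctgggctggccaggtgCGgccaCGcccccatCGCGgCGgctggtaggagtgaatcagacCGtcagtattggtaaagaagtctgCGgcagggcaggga
Tbx21, chr11:97115332-97115581, minus strand: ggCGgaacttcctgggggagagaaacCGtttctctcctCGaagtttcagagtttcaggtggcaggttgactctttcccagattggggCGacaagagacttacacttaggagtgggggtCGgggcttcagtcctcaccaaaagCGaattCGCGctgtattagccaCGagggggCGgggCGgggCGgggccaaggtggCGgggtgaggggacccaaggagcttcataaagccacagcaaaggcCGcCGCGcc
The next pair is the same gene at its proximal start (with a peak) and its distal start (without).
Runx3 proximal, chr4:135152295-135152544, plus strand: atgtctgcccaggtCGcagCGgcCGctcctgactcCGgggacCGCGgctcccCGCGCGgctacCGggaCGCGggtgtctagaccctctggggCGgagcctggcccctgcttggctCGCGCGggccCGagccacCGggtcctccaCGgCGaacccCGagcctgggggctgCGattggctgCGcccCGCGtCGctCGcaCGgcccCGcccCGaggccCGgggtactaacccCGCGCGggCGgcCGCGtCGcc
Runx3 distal, chr4:135120395-135120644, plus strand: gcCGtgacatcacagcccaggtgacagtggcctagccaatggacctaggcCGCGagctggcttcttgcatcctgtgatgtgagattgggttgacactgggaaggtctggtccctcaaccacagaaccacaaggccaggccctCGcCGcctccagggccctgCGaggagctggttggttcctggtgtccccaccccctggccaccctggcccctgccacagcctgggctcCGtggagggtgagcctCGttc
The last pair, Irf4 (with a peak) and the upstream start of Foxp3 (without), are those of the 8 genes whose promoters hold the letters tataaa just before the start.
Irf4, chr13:30748983-30749232, plus strand: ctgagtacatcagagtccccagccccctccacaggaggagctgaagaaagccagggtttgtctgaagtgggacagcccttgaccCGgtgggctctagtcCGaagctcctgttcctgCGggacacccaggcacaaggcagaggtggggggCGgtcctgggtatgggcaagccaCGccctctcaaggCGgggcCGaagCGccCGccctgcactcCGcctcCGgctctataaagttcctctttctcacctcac
Foxp3 upstream start, chrX:7579426-7579675, plus strand: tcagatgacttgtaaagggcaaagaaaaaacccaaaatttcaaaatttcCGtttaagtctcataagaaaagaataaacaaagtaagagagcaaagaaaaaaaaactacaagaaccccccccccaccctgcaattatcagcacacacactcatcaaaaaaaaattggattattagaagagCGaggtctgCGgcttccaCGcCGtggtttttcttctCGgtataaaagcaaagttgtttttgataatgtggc
These runs hold 15 CpG for Prdm1, 16 for Tbx21, 38 for the proximal and 8 for the distal start of Runx3, 11 for Irf4 and 6 for Foxp3.

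Irf4 (gene 16364, chromosome 13, 30749233 to 30766981) was the most covered of the 4 held genes. A peak of 990 bp (30748890 to 30749879) lay over its start, at -343 to +646 bp relative to it (negative is upstream), and 78.6% of the RNA polymerase II peaks of the whole list were narrower. A peak of 307 bp (30760741 to 30761047) lay inside the gene 11508 bp after the start, and one of 404 bp (30742077 to 30742480) lay upstream, ending 6753 bp before it. All of these had Irf4 as their nearest protein-coding gene. The next peak, 488 bp wide at 30786192, lay 19211 bp past the 3′ end of Irf4, outside the window, and was nearest to the exocyst gene Exoc2. Peaks covered 954 bp of the Irf4 span, 5.37% of it, where the median held gene had 581 bp and 2.42%. Within 10 kb the covered length rose to 1701 bp.

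Prdm1 (gene 12142, chromosome 10, 44437174 to 44528558, minus strand) encodes the repressor BLIMP-1, which ends the follicular and memory programs in favour of effector differentiation. Its listed start, 44458748, lies 69810 bp inside the annotated span, which extends far upstream. A peak of 373 bp (44458680 to 44459052) covered that start, at -304 to +68 bp. A peak of 425 bp (44447762 to 44448186) lay inside the gene, 10562 bp after the start. The third, 180 bp wide (44529587 to 44529766), lay 1029 bp outside the upstream end of the span and 70839 bp from the listed start. It is among the narrowest of the list, of which 0.0275% were narrower. All 3 were below the list's median width of 638 bp. Peaks covered 798 bp of the span, above the median of 581 bp for held genes. That was 0.873% of this long span, below the median of 2.42%. Of all genes 6.12% had 2 or more peaks over the span, as Irf4 and Prdm1 did.

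Bcl6 (gene 12053, chromosome 16, 23965050 to 23988866, minus strand) encodes the repressor that opposes BLIMP-1. It had 1 peak, 455 bp wide (23988609 to 23989063), over the upstream one of its 2 listed starts, at -211 to +243 bp. Its downstream start, 23981283, had no peak and lay 7326 bp from this one. The peak ran past the annotated end of the gene, so 258 bp of it fell inside the span and 455 bp within 10 kb. The noncoding gene Gm31527 (23988267 to 23999436) overlaps this place, and CUT&Tag does not tell strands apart, so the peak cannot be given to Bcl6 alone. Prdm1 and Bcl6, which repress each other, thus each had a peak over a start.

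Runx3 (gene 12399, chromosome 4, 135120645 to 135177990) is a gene with a distal and a proximal promoter. Its single peak, 640 bp wide (135153335 to 135153974), began 790 bp after the proximal start (135152545) and 32690 bp after the distal one, and covered neither start. No peak lay near the distal start. Its width is 2 bp above the list's median of 638 bp, so it stays just inside the wider 50% of the list. Among 814 protein-coding genes with 2 listed starts more than 2 kb apart, 70 had a peak within 1 kb of the downstream start alone, as Runx3 did. A further 168 had one at the upstream start alone, as Bcl6 did, 38 at both and 538 at neither. Downstream alone was thus the rarer pattern, 25.4% of the 276 genes with a peak at either start, against 60.9% for upstream alone.

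All 4 held genes had their peak within 1 kb of a listed start, which 88.2% of held genes with a listed start did. Over all 17491 genes with a listed start, 30.9% had a peak that near. In Irf4, Prdm1 and Bcl6 the peak covered the start itself, 3 of 8 beside 23.0% of the genes with a listed start. The Runx3 peak lay near its proximal start without covering it. Irf4 and Prdm1 had a further peak in the gene body about equally far downstream, at 11508 and 10562 bp.

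Foxp3 (gene 20371, chromosome X, 7579676 to 7595243) stood between the held genes and those without a peak. Its span and both of its listed starts were free of peaks. The peak within 10 kb, 576 bp wide (7572650 to 7573225), ended 6451 bp before the upstream start. It lay inside Ppp1r3f, a gene for a protein phosphatase subunit on the other strand, 1056 bp from that gene's start at 7574281. It was also 375 bp from the start of Flicr (7573600), a noncoding gene that runs into Foxp3 and that had no peak over its own span (7573600 to 7581016). When a peak was counted only for its nearest protein-coding gene, Foxp3 joined the genes with none. Of all genes 9.48% had, like Foxp3, a peak within 10 kb and none over the span.

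Gata3 (gene 14462, chromosome 2, 9857078 to 9887953, minus strand) was the farthest of the 8 from its nearest RNA polymerase II peak. That peak, 419 bp wide at 10048756, was 161 kb away and 147 bp from the start of Taf3, which encodes a subunit of the general factor TFIID. No peak lay within 100 kb, where the median gene had 2, and 2 lay within 500 kb, as for Bcl6, where the median gene had 7. The noncoding genes 4930412O13Rik and 9230102O04Rik, which overlap the upstream part of Gata3, carried 0 peaks as well. An R-loop peak of 362 bp lay nearer than any RNA polymerase II peak, 126 kb away.

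Tbx21 (gene 57765, chromosome 11, 97098007 to 97115331, minus strand) had 2 RNA polymerase II peaks within 100 kb, as many as the median gene, and 14 within 500 kb, more than around 76% of all genes. Its neighbours Osbpl7 and Tbkbp1 had 0 over their spans. The nearest peak was 72.6 kb away, 991 bp wide, over the start of Kpnb1, the gene of the nuclear import factor importin beta. Eomes (gene 13813, chromosome 9, 118478186 to 118486132) had its nearest peak, 363 bp wide, 76.6 kb away at 118401216, itself 28261 bp from the nearest listed start (4933432G23Rik). Within 500 kb of Eomes there were 3 peaks. The flanking gene Golga4 and the noncoding gene Gm33408, which overlaps the Eomes start, carried none. At 50 kb around the span, these 3 members still had no RNA polymerase II peak, as 41.9% of all genes did.

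**Figure D2:**
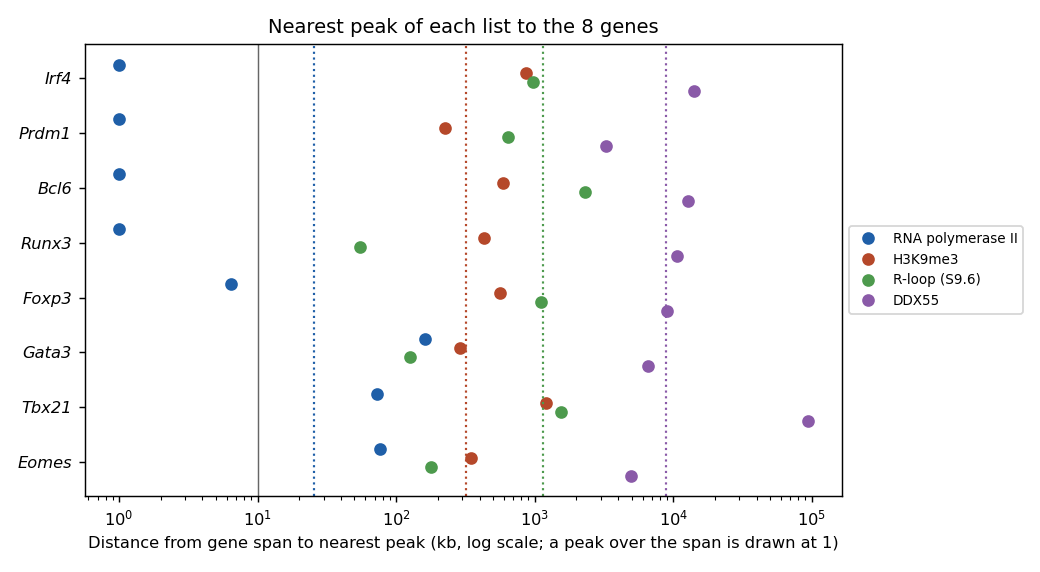
Distance in kb, on a log axis, from the span of each gene to the nearest peak of each list, with a peak over the span drawn at 1. The black line is 10 kb and dotted lines are the medians over all protein-coding genes (25.5 kb for RNA polymerase II, 318 kb for H3K9me3, 1148 kb for R-loop, 8842 kb for DDX55). Only RNA polymerase II points lie left of the black line.

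No member had an H3K9me3, R-loop or DDX55 peak over its span or within 10 kb. That held for 88.9% of all genes, so it does not mark these genes out. An H3K9me3 peak lay over 5.39% of all genes and within 10 kb of 9.28%. An R-loop peak lay over 1.59% and within 10 kb of 2.28%, and a DDX55 peak over 0.324% and within 10 kb of 0.498%. The 4 held members were thus held without any of the other 3 targets within 10 kb. The same was true of 6555 of the 7038 held genes, which are 30.0% of all genes, so most held genes share this trait. The distance to H3K9me3 did not order the members by their RNA polymerase II peaks. The nearest H3K9me3 peak was 290 kb from Gata3, 346 kb from Eomes and 1210 kb from Tbx21, while among held genes it was 226 kb from Prdm1 and 864 kb from Irf4. The nearest R-loop peak to any member was 482 bp wide and lay 54.5 kb from Runx3. DDX55 peaks were 3246 kb (Prdm1) to 93902 kb (Tbx21) away.

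The 11 listed starts of these genes differed in composition. CpG observed over expected is the count of CG times the window's length divided by the product of its C and G counts, here in the 300 bases from 250 before to 50 after a start. Over 21262 starts of protein-coding genes its median was 0.825 where an RNA polymerase II peak lay within 1 kb and 0.362 where none did. The upstream start of Bcl6 (1.05) and the proximal start of Runx3 (1.01) were in the class of 1 and above, in which 61.6% of starts had a peak. The starts without a peak in these same genes were lower, at 0.71 for Bcl6 and 0.264 for Runx3.

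Composition did not separate the other members. Prdm1 (0.766), with a peak, and Tbx21 (0.754), Gata3 (0.658) and Eomes (0.607), without one, all fell between 0.6 and 0.8, where 43.2% of starts had a peak. Irf4 had a peak with a ratio of 0.398, in the class from 0.2 to 0.4, where 8.1% of starts did. That ratio lay just below the edge of the next class, 0.4 to 0.6, where 23% did. The 2 starts of Foxp3 were at 0.497 and 0.47, in a class with 23% of starts near a peak, and their GC contents were 40.7% and 47.7%, against 77.3% at the proximal start of Runx3.

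**Figure D3:**
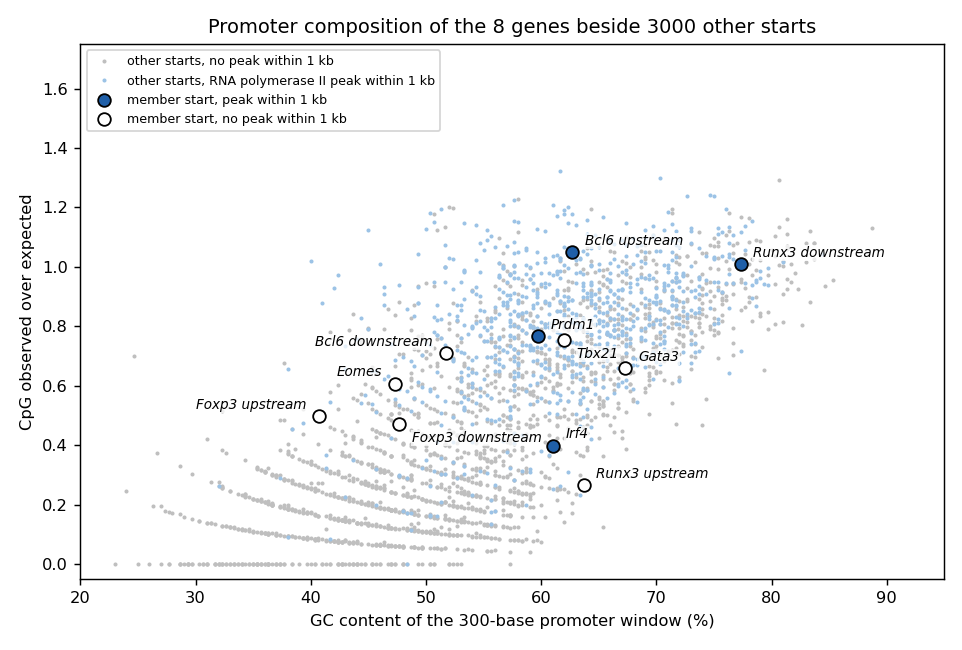
GC content (%) and CpG observed over expected in the 300-base window of each listed start, for the 11 starts of the 8 genes (large circles, filled where an RNA polymerase II peak lay within 1 kb) and for 3000 randomly drawn starts of other protein-coding genes (dots, blue with a peak and grey without). Bcl6 upstream (1.05) and Runx3 downstream (the proximal start, 1.01) are the highest of the 11 and are filled, while Prdm1 (filled) and Tbx21 (open) lie side by side.

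The promoter windows were searched on both strands for the TATA box letters TATAAA, for the CCAAT box and for the GC box GGGCGG, where matches may overlap. TATAAA occurred at Irf4, 26 bases before the start, and at the upstream start of Foxp3, 32 bases before it, and at no other of the 11 starts. Of all starts 12.6% held it, 5.99% of those near a peak and 15.4% of the rest. GGGCGG occurred 3 times at Tbx21 and at the proximal start of Runx3, and 2 times each at Gata3, Irf4 and the upstream start of Bcl6. Among all starts 69.2% of those near a peak and 36.4% of the rest held it, and at Tbx21 and Gata3 it stood at a start without a peak. CCAAT, found in 38.2% of starts, occurred at Tbx21, Prdm1, Eomes, the upstream start of Foxp3 and both starts of Runx3. A match is a description of letters and says nothing of a bound factor.

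Other genes of helper differentiation were counted in 6 lists, chosen with earlier results of these data known. Each count stands beside the 41.6% of all genes with an RNA polymerase II peak within 10 kb. The STAT relays, which carry polarising cytokine signals to the nucleus, had one in 7 of 7, and all of these were held. Stat4, which acts downstream of IL-12 on Tbx21, had 4 peaks over its span. Stat6, which acts downstream of IL-4 on Gata3, had 1 of 1554 bp, of which 651 bp lay inside the span. The factors of the naive state had one in 13 of 13, with 18 peaks over Bach2, 6 over Tcf7, and 2 each over Foxo3 and Klf6. Polarising receptors had one in 15 of 16, among them Il12rb2 with 3 peaks over its span, Tgfbr2 with 9, Icos with 2 and Il7r with 1, and Il23r had none. The counts in these lists take no account of length. Spans of the 13 naive-state factors, all of which were held, ran from 1571 bp to 347697 bp (Bach2), where the median of all genes was 17170 bp.

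The median length covered by RNA polymerase II peaks within 10 kb of the span was 2682 bp for the STAT relays, 4363 bp for the naive-state factors and 1683 bp for the receptors. It was 616 bp for further lineage and effector factors and 0 for family relatives, for signature products and for all genes. Longer spans leave room for more peaks, and these medians were not adjusted for length.

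Further lineage and effector factors had a peak within 10 kb in 14 of 22 cases, and 11 were held. Irf1 (2301 bp), Hif1a (1662 bp), Id2 (1436 bp) and Bhlhe40 (866 bp) had the widest peaks over their spans, while Ascl2, Hlx, Ikzf2 and Irf8 had none. Of 16 signature products of the lineages 0 were held and 1 (Cxcr5, the follicular homing receptor, with 2 peaks, named as the single such gene) had a peak within 10 kb. Ccr4, Ccr6, Cxcr3 and Gzmb were among the 15 without one. All signature products but Ccr6 (22479 bp) had spans below the median of all genes, 17170 bp. The shares over all genes take no account of length.

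**Figure D4:**
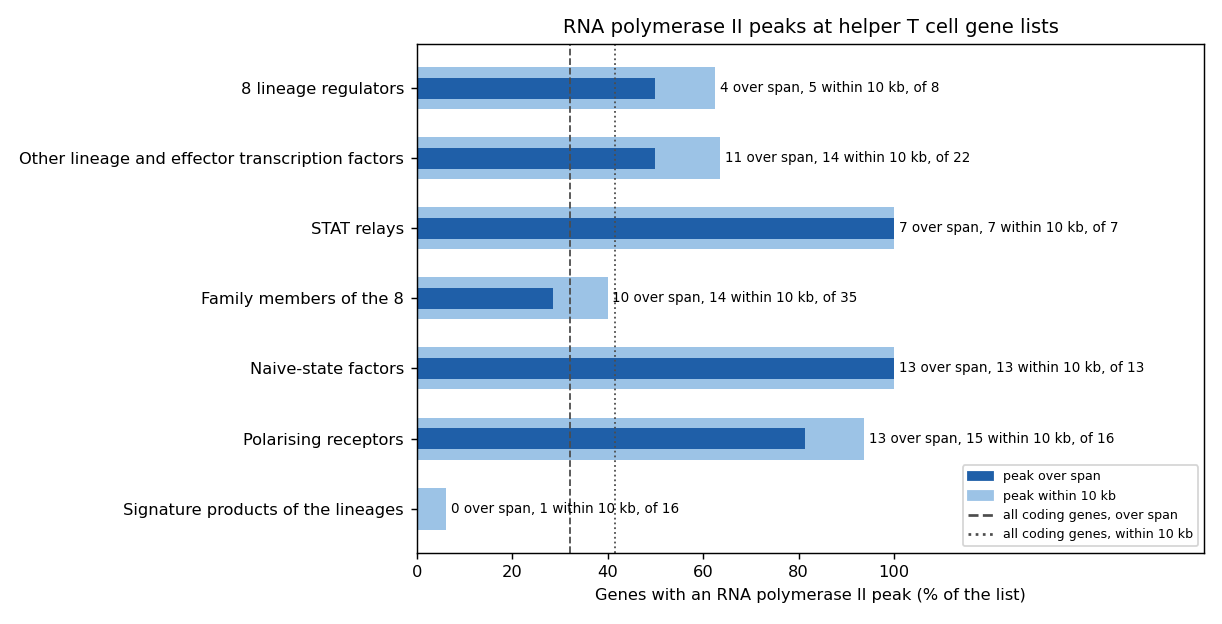
Share of genes (%) with an RNA polymerase II peak over the span (dark bars) and within 10 kb (light bars) for the 8 lineage regulators and 6 lists of related genes, with the shares of all protein-coding genes as vertical lines (32.2% dashed, 41.6% dotted). The 8 regulators (4 and 5 of 8) lie between the naive-state factors (13 of 13) and the signature products (0 and 1 of 16). The 8 regulators and the lists were chosen with earlier results of these data known, and the shares take no account of gene length.

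A list of 35 relatives covered the T-box, GATA, Foxp, Irf and Runx families with the RUNX partner gene Cbfb, and Bcl6b, but no relative of Prdm1. Of these 14 (40%) had a peak within 10 kb, and 10 (28.6%) were held, near the 41.6% and 32.2% of all genes. The counts per family are small and were not tested. In the T-box family 2 of 14 others were held (Mga and Tbr1), and in the GATA family 1 of 6 (Trps1), while Gata1 and Gata2 had none. Of the 590 bp of the Tbr1 peak, 149 bp lay inside the span. Runx1 had 6 peaks over its span where Runx3 had 1, and Foxp1, a factor of naive T cells, had 23 where Foxp3 had 0 and Foxp2 and Foxp4 had none within 10 kb. These spans are far longer, 224609 bp for Runx1 and 597405 bp for Foxp1. In the IRF family 5 of 8 others were held, with the widest peaks at Irf7 (2397 bp) and Irf1 (2301 bp), against 990 bp at Irf4. Irf1, Irf2 and Irf8 are in this list and in the one before.

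The genes most like each held member, 2 for each, were those with the nearest covered lengths, summed as absolute differences over the 4 lists within 10 kb of the span, with ties broken by span length nearest to the member's. Irf4 (1701 bp in 3 peaks) was matched by Lpcat3 (1701 bp in 3 peaks) and Ik (1700 bp in 2 peaks). Bcl6 (455 bp) was matched by Spa17 (455 bp) and Acsm3 (454 bp), each with 1 peak. Prdm1 (978 bp in 3 peaks) matched Zc3h6 and Cep43, which had the same 978 bp in 1 peak, so the measure does not see how peaks are split. Runx3 (640 bp) matched Orc2 and Tpgs2 at 640 bp. These matches are 2 of 6 genes with no difference from Runx3 and 2 of 4 with none from Prdm1.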

How the data were processed

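Peak positions in bp are the values here, as deposited by the authors in 4 merged lists, one for each target. Per the submitters' processing notes the build was mm10, and Bowtie2 2.5.0, fastp 0.12.4, ChIPseeker 1.30.3, MACS3 3.0.0b1 and SAMtools 1.15.1 are named with no roles. Thresholds, the way samples were merged and any use of controls are not given in the sources used here. Per the labels the RNA polymerase II, H3K9me3 and DDX55 lists belong to 4 samples each and the R-loop list to 8, and HA and IgG were not analysed here.

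Peaks were intersected with RefSeq spans of protein-coding genes (at least 1 bp, also extended by 10000 bp) in Python 3.11.15 (pandas 2.3.3 and numpy 2.4.6). The counts were checked against bedtools 2.31.1 and tested on simulated data. Starts came from RefSeq's promoter table, which lists 21262 starts for 17491 of the 21883 genes. No test was run, because the lists hold no replicates. Shares over genes are descriptions, and genes are not replicates.

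The 8 genes and all lists were chosen with earlier results of these data known. Named were the 8 genes, their nearest genes, the 2 genes most like each held member, and per related list up to 4 with the widest peak over the span and up to 4 without a peak, in alphabetical order. Mga, Tbr1, Trps1, Cbfb, Bcl6b and Cxcr5 fall outside that rule and were chosen after their values were seen. Tbxt was matched by a synonym. The counts at starts, of genes with 2 starts, by gene length, around the genes and over all genes with the wider peaks were added after seeing the data.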

Additional observations from a re-analysis of the deposited data

How the results depend on the processing

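Counting a peak by its midpoint, or where at least 50% of it lay inside, left 4 members held, 5 with an RNA polymerase II peak within 10 kb and 3 with no peak of any list, and no other count was rerun that way. With only the wider 50% of the peaks, 2 members were held and 2 had an RNA polymerase II peak within 10 kb (Irf4 and Runx3), and 6 had no peak of any list. Width stands in for a score, which the lists lack. Within 3000 bp of the span 4 members had an RNA polymerase II peak, and within 50000 bp 5 did. No H3K9me3, R-loop or DDX55 peak lay within 50000 bp of a member. With 10000 bp added to the span, the covered length was 455 bp for Bcl6 and 1701 bp for Irf4. Over the span alone 0 of the signature products had a peak. In windows added after seeing the data, 3 members had a peak over a listed start and 4 within 3000 bp of one. No paired analysis was possible because the lists merge the replicates and both genotypes. Depth per sample is unknown, so a missing peak is not evidence of missing signal.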

Other observations

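Among the related factors, Rora, a nuclear receptor gene of Th17 and innate lymphoid cells, was picked out after its values were seen because it carried 3 of the 4 kinds of peak. Within 10 kb it had 2 RNA polymerase II, 8 R-loop and 1 H3K9me3 peaks, where 2.28% of all genes had any R-loop peak. Its span, 734843 bp, was the longest of the related genes, and the share over all genes takes no account of length. Tox, with a span of 305205 bp, had 3 RNA polymerase II peaks and 1 R-loop peak. None of the 8 lineage regulators had an R-loop or H3K9me3 peak in the same window, and their spans were at most 91385 bp.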
